A study of Danio rerio with 6 samples.

Results

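The endothelial genes cdh5, fli1a, fli1b, kdr, tie1, tek and etv2 were read out in the distal and proximal pieces of regenerating zebrafish caudal fins. They are 7 of the 31901 genes listed in the count files, chosen by Ensembl identifier because they are used to mark the cells that line blood vessels. The fish carried shha:eGFP, a green fluorescent reporter of the Hedgehog ligand gene shha, and the regenerates were taken 96 hours after amputation. Distal pieces hold the reporter signal and proximal pieces lie nearer the stump. There were 3 distal and 3 proximal samples, numbered 2, 3 and 4 in both regions, each made from tissue pooled from 4 fins. All samples carried the transgene and were regenerating, so no uninjured fin was compared. The libraries held 20113859 to 22348808 gene-assigned reads in distal tissue and 21480131 to 23629159 in proximal tissue. The comparison asks which genes differ between the tip of the outgrowth and its base. Their Ensembl identifiers are ENSDARG00000075549 for cdh5, ENSDARG00000054632 for fli1a, ENSDARG00000040080 for fli1b, ENSDARG00000017321 for kdr, ENSDARG00000004105 for tie1, ENSDARG00000028663 for tek and ENSDARG00000053868 for etv2.

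Vessels regrow into a fin regenerate from the stump by angiogenesis, the extension of new vessels from existing ones. Endothelial cells respond to Vegf ligands through receptor tyrosine kinases such as Kdr and Kdrl, and to angiopoietins through Tek (also called Tie2), with Tie1 as its relative in the same family. VE-cadherin, the product of cdh5, joins endothelial cells to each other. Etv2, Fli1a and Fli1b are ETS-family transcription factors, and Etv2 and Fli1b act in the formation of embryonic zebrafish vessels. On RefSeq assembly GRCz12tu, etv2 and fli1b are neighbouring genes on chromosome 16, while fli1a lies on chromosome 18.

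The samples numbered 4 stood apart in both regions. The first principal component of log2 CPM, with 67.5% of the variance, separated the regions, and the second, with 19.5%, separated number 4 from numbers 2 and 3. The counts of members, of other endothelial genes, of ligands and of mural genes are therefore also given without number 4. Levels are in CPM, counts scaled to the same total of gene-assigned reads per library, which are not corrected for gene length, so they set no order of level between different genes. In whole tissue, fewer cells of a type and less RNA per cell cannot be told apart.

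The receptors tie1, kdr and tek and the transcription factor fli1b fell in distal tissue, to 0.408 to 0.608 times the proximal level. The paralogue fli1a and the early regulator etv2 did not pass the test, which did not use the sample number. With the sample number as a block, etv2 was also lower in distal tissue (edgeR adjusted p = 0.0239). The gene cdh5 was too rare in these libraries to be tested with the others. Of the 7 genes, 6 passed the filter on low counts. Of those 6, 4 were lower in distal tissue at an adjusted p-value under 0.05 and 0 were higher (edgeR quasi-likelihood test, Benjamini-Hochberg adjustment over 18455 genes). By limma-voom 0 of the 6 were also higher. DESeq2 was run without that filter, and there 1 of the 7 members, cdh5, was higher (DESeq2 adjusted p = 0.0305). In that run 5653 of 20864 genes passed in either direction. None of the 6 members tested in edgeR had an unadjusted p-value under 0.05 toward higher distal levels in the edgeR fit. Over all tested genes 14.4% were lower in distal tissue by the same rule and 29.7% passed it in either direction. The median log2 fold change of the 6 genes was -0.85, beside -0.015 over all tested genes. Fold changes are distal over proximal on the TMM scale (trimmed mean of M-values). Scaling by library size alone moved the median of all tested genes by 0.12 toward distal tissue, and the same 4 members still passed the test.

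**Figure D1:**
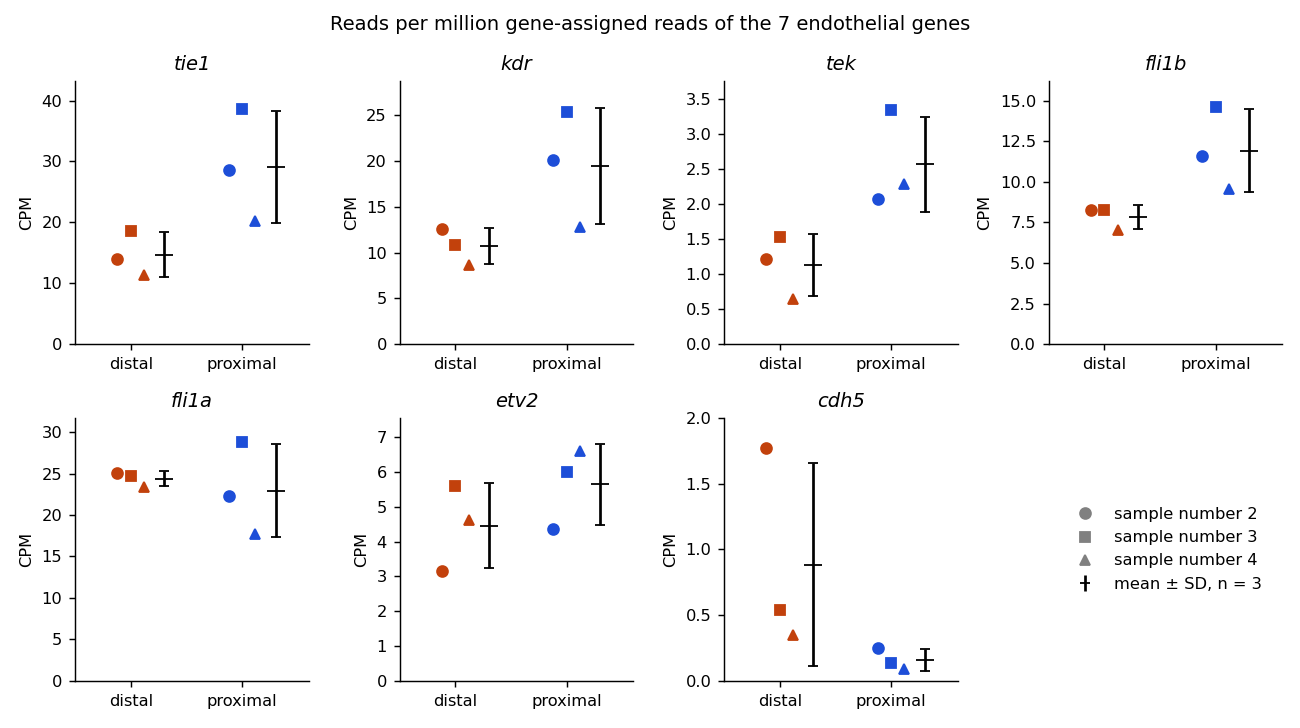
CPM (counts scaled to the same total of gene-assigned reads per library, vertical axes from 0) of each endothelial gene in the 3 distal (orange) and 3 proximal (blue) samples, with the sample number as the symbol and the mean ± SD as a black bar. The regions do not overlap for tie1, kdr, tek and fli1b, lower in distal tissue, or for cdh5, higher in distal tissue, and they overlap for fli1a and etv2.

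The receptor gene tie1 had 14.0, 18.7 and 11.4 CPM in distal samples 2, 3 and 4, against 28.6, 38.6 and 20.2 CPM in proximal samples 2, 3 and 4. Every distal value lay below every proximal value, and sample 3 was the highest and sample 4 the lowest in each region. Its mean was 14.7 ± 3.67 CPM in distal and 29.1 ± 9.25 CPM in proximal tissue (SD, n = 3 each). Its fold change on the log2 scale was -1.10 (SE 0.24, 95% interval -1.64 to -0.56; edgeR adjusted p = 0.00999). Within the same-numbered pairs the log2 ratios of CPM were -1.03, -1.05 and -0.82 for numbers 2, 3 and 4, the narrowest spread among the 4 genes that fell.

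The Vegf receptor gene kdr had 12.6, 10.8 and 8.65 CPM in distal samples 2, 3 and 4, against 20.1, 25.4 and 12.8 CPM in proximal samples 2, 3 and 4. The regions did not overlap, but the lowest proximal sample, number 4, was close to the highest distal sample, number 2. It fell by 0.97 on the log2 scale (SE 0.23, 95% interval -1.51 to -0.43; edgeR adjusted p = 0.0162). In the fits without a block, the call of kdr was lost with some single samples left out. The edgeR adjusted p-value was 0.0563 without distal sample 3, 0.0600 without proximal sample 2 and 0.0505 without proximal sample 3. In the same order, 3807, 3904 and 4834 of all tested genes passed, against 5480 with all samples. With the replicate block and all samples, the edgeR adjusted p-value of kdr was 7.14e-05, where 48.4% of all tested genes passed.

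The angiopoietin receptor gene tek was read much less deeply, with 26, 34 and 13 reads in distal samples 2, 3 and 4, against 49, 73 and 49 reads in proximal samples 2, 3 and 4. These reads correspond to 1.21, 1.52 and 0.646 CPM in distal and 2.07, 3.34 and 2.28 CPM in proximal tissue. The regions did not overlap. Its log2 fold change of -1.29 was the farthest from 0 among the 6 tested members, with a wide error (SE 0.34, 95% interval -2.07 to -0.52; edgeR adjusted p = 0.0221). The pair ratios differed most for this gene, at -0.78, -1.13 and -1.82 for numbers 2, 3 and 4. Without distal sample 2 the adjusted p-value was 0.0582, and without proximal sample 3 it was 0.0741.

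The ETS gene fli1b had 8.24, 8.28 and 7.01 CPM in distal samples 2, 3 and 4, against 11.6, 14.6 and 9.54 CPM in proximal samples 2, 3 and 4. The distal samples were close together and all lay below the proximal ones. It fell by 0.72 on the log2 scale (SE 0.16, 95% interval -1.10 to -0.34; edgeR adjusted p = 0.0130). This was the smallest change among the 4 genes that passed.

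The regions also did not overlap for 16.4% of all tested genes in the direction of distal below proximal. The calls of tie1 and fli1b held with each of the 6 samples left out in turn. Of the members, 2 passed without proximal sample 3 and 3 or 4 without any other single sample. Without both samples numbered 4, the 4 genes again passed. Without both samples numbered 3, 1 passed, which was tie1, and without both numbered 2, 0 passed in edgeR, while 4 had an unadjusted p-value under 0.05. Of all 18455 tested genes, 5244 passed without number 4, 2932 without number 3 and 2231 without number 2. No other tool and no replicate block was run on those subsets or with single samples left out. With the block and all samples, the edgeR adjusted p-values were 1.30e-06 for tie1, 0.000500 for fli1b and 0.000929 for tek.

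The ETS gene fli1a, a paralogue of fli1b, had 25.1, 24.7 and 23.4 CPM in distal samples 2, 3 and 4, against 22.3, 28.8 and 17.7 CPM in proximal samples 2, 3 and 4. The proximal samples lay on both sides of the distal ones. Its difference between the regions was -0.03 on the log2 scale (SE 0.15, 95% interval -0.37 to 0.32; edgeR adjusted p = 0.924). Its sign turned under scaling by library size alone, to 0.088, without proximal sample 3, to 0.152, and without both samples numbered 3, to 0.160.

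The early endothelial regulator etv2 had 3.17, 5.59 and 4.62 CPM in distal samples 2, 3 and 4, against 4.36, 5.99 and 6.61 CPM in proximal samples 2, 3 and 4. The distal value was the lower within each number, with log2 ratios of -0.46, -0.10 and -0.52, but the regions overlapped. The fitted log2 difference was -0.47 (SE 0.25, 95% interval -1.05 to 0.12; edgeR adjusted p = 0.204). With the replicate number as a block it was -0.47 (SE 0.15; edgeR adjusted p = 0.0239), so that 5 of the 6 tested members were lower in distal tissue in the paired fit, where 25.1% of all tested genes were. The remaining one, fli1a, had an adjusted p-value of 0.945 there.

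The junction gene cdh5 went the other way and is a weak marker in these files. It had 38, 12 and 7 reads in distal samples 2, 3 and 4, against 6, 3 and 2 reads in proximal samples 2, 3 and 4. Distal sample 2 held 38 of the 57 distal reads, and the proximal total was 11 reads. These are 1.77, 0.537 and 0.348 CPM in distal and 0.254, 0.137 and 0.0931 CPM in proximal tissue, so every distal sample was above every proximal one, as for 30.1% of tested genes. Exact Poisson 95% intervals, which cover counting error only, were 0.675 to 1.16 CPM for the pooled distal reads and 0.0820 to 0.294 CPM for the pooled proximal reads. In the edgeR fit without a filter on low counts the fitted log2 difference was 2.29 (SE 0.69; adjusted p = 0.0404 over 27129 genes), where 19.8% of genes passed in either direction and 10.1% were higher in distal tissue. Without distal sample 2 that fit gave 1.29 (SE 0.64; adjusted p = 0.246). With the replicate block and all samples, distal sample 2 included, the unfiltered edgeR fit gave 2.28 (adjusted p = 0.000118). In that fit 9453 of 27129 genes passed in either direction. The low proximal count of this defining endothelial gene stands beside proximal levels of 20.2 to 38.6 CPM for tie1, and whether the gene model used for counting bears on it was not tested. Another Vegf receptor gene, flt1, looked up after the values were seen, was also at 2 to 9 reads in every library and was not tested. It had 9, 4 and 3 reads in distal samples 2, 3 and 4, against 3, 2 and 2 reads in proximal samples 2, 3 and 4. Every distal CPM of flt1 lay above every proximal one, as for cdh5.

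The paralogues among the vessel genes were set against each other within each sample, a comparison that does not depend on the scaling between libraries. The log2 ratio of fli1b to fli1a reads was -1.61, -1.58 and -1.74 in distal samples 2, 3 and 4, against -0.95, -0.98 and -0.89 in proximal samples 2, 3 and 4. All distal ratios lay below all proximal ratios, by 0.70 on average. The log2 ratio of kdr to kdrl, the second Vegf receptor paralogue, was -0.30, -0.22 and -0.80 in distal samples 2, 3 and 4, against 0.68, 0.49 and 0.15 in proximal samples 2, 3 and 4. The mean difference was -0.88, and again the regions did not overlap. Each ratio had p = 0.1 in an exact two-sided permutation test, which cannot go lower with 3 samples per region, and the adjusted value over the 2 ratios was also 0.1. Both ratios were chosen after the values were seen. The level of kdrl itself was 14.4 CPM in distal and 14.0 CPM in proximal tissue, and it did not pass (-0.08 on the log2 scale, SE 0.18; edgeR adjusted p = 0.783). Ambiguously placed reads of near-identical paralogue stretches add to neither gene in such counts, so each ratio reflects the distinguishable sequence.

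**Figure D2:**
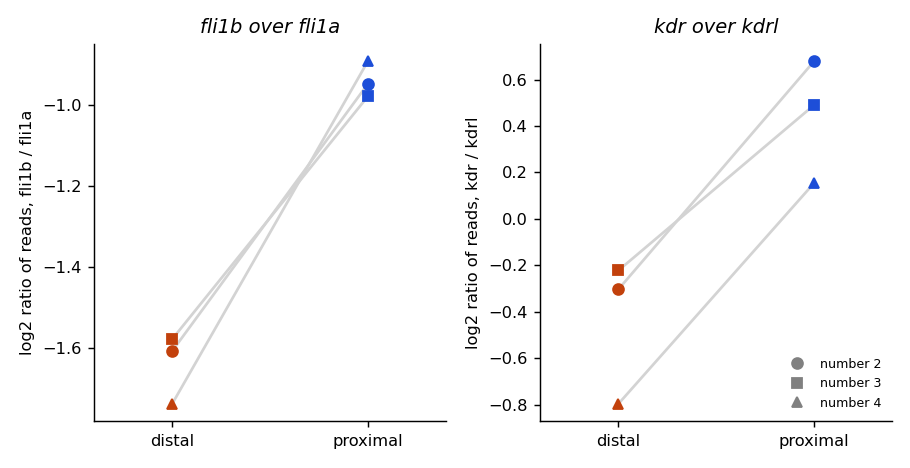
Log2 ratio of reads (vertical axes, not starting at 0) of fli1b over fli1a and of kdr over kdrl in distal (orange) and proximal (blue) samples, with grey lines joining samples of the same number. Both ratios are lower in distal tissue in 3 of 3 numbers, by 0.70 and 0.88 on average.

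The other members were also set against tie1 within each sample, a choice made after the values were seen. The log2 ratio of fli1a to tie1 averaged 0.76 ± 0.32 in distal and -0.32 ± 0.12 in proximal tissue (SD, n = 3 each). It was higher in distal tissue in 3 of 3 numbers, with no overlap (exact two-sided permutation p = 0.1, adjusted 0.5 over 5 ratios). The ratio of kdr to tie1 averaged -0.45 ± 0.32 in distal and -0.59 ± 0.07 in proximal tissue (exact permutation p = 0.6, adjusted 0.6), and those of tek, fli1b and etv2 differed by -0.26, 0.38 and 0.61 between the regions (exact permutation p = 0.5, 0.2 and 0.3). The ratios to cdh5 were lower in distal tissue for all 6 other members, with mean log2 differences of -3.28 to -1.95 (exact permutation p = 0.1 each, adjusted 0.1 over 6), and rest on the 2 to 38 reads of that gene.

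In a wider list of endothelial genes, more were lower than higher in distal tissue. This list and those below were, like the members, chosen with earlier results of these data known. Of 31 listed, 27 were matched to a single identifier and 25 were tested. In distal tissue 11 were lower and 2 higher at an adjusted p-value under 0.05, beside 14.4% and 15.3% of all tested genes, and 12 did not pass. The median log2 fold change of the 25 was -0.66. The gene plvapb, for a protein of the diaphragms of fenestrated vessels, had 47.5, 69.1 and 59.0 CPM in distal samples 2, 3 and 4, against 123, 155 and 146 CPM in proximal samples 2, 3 and 4 (log2 fold change -1.39, SE 0.15; edgeR adjusted p = 0.000366). The gene for von Willebrand factor, vwf, a clotting protein stored in endothelial cells, had 1.26, 1.39 and 0.597 CPM in distal samples, against 7.15, 11.7 and 3.96 CPM in proximal samples (-2.91, SE 0.43; adjusted p = 0.00183). The paralogue of plvapb, plvapa, was at 6, 8 and 6 reads in distal samples and 23, 33 and 32 reads in proximal samples (-2.18, SE 0.33; adjusted p = 0.00210). These 3 genes were separated between the regions with no overlap, and they stayed past the threshold with any single sample left out. The filter on low counts let plvapa in through its proximal reads alone, which favoured the direction of its call. It was 1 of the 25 tested genes with under 10 reads in every sample of 1 region, beside 370 of all 18455 tested genes.

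The water channel gene aqp8a.1 did not pass the test, at 94.6 CPM in distal and 107 CPM in proximal tissue (log2 fold change -0.29, SE 0.12; edgeR adjusted p = 0.106). With the replicate block it passed (-0.30; edgeR adjusted p = 0.00952). In that fit 16 genes of the list were lower in distal tissue and 3 higher, beside 25.1% and 23.3% of all tested genes. The 2 genes that rose, named after their values were seen, were mmrn2b and esama. The gene mmrn2b, related to the endothelial matrix protein multimerin, had 13.7, 14.3 and 13.2 CPM in distal samples, against 4.66, 5.53 and 3.63 CPM in proximal samples (1.46, SE 0.16; edgeR adjusted p = 0.000379). The gene esama, for an endothelial adhesion molecule, had 12.7, 9.26 and 6.61 CPM in distal samples, against 4.15, 5.76 and 2.56 CPM in proximal samples (1.09, SE 0.31; adjusted p = 0.0335). Its call was lost without distal sample 2 or 3, without proximal sample 2 or 4, and without both samples numbered 2 or 3. Of the list, 8 genes passed without distal sample 3, 5 without both samples numbered 2, 7 without both numbered 3 and 11 without both numbered 4. In the same order, 3807, 2231, 2932 and 5244 of all 18455 tested genes passed.

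**Figure D3:**
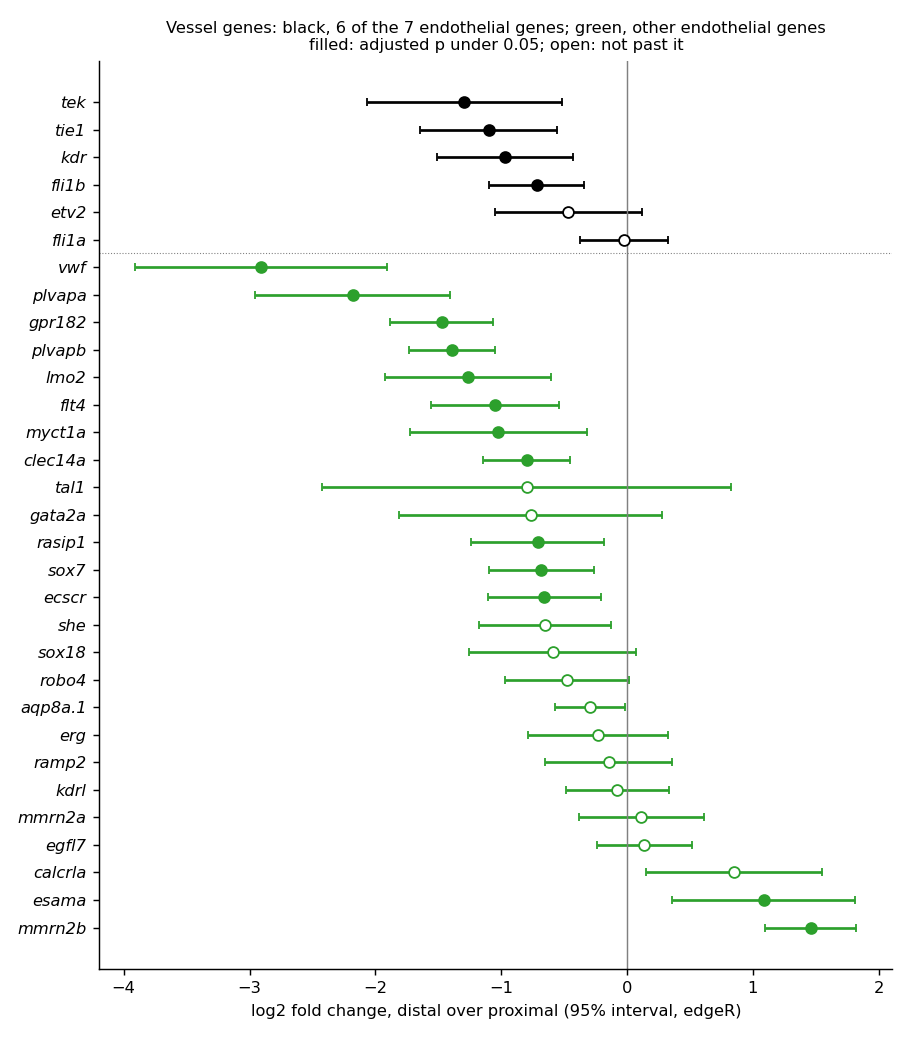
Log2 fold change, distal over proximal, with its 95% interval from edgeR, for the 6 tested endothelial genes (black, above the dotted line) and the 25 other tested endothelial genes (green). Filled points passed an adjusted p-value under 0.05: tek, tie1, kdr and fli1b among the first, and 11 lower and 2 higher genes among the second.

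Of 11 arterial and tip-cell genes, 8 were matched and tested: 3 were higher in distal tissue, beside 15.3% of all tested genes, and 5 did not pass. Without a block 0 of the 8 were lower in edgeR, in DESeq2 or in limma-voom, and 1, aplnrb, was lower at an unadjusted edgeR p-value under 0.05. With the replicate block 4 were higher and 2 lower, aplnrb and nrp1a, beside 23.3% and 25.1% of all tested genes. The median log2 fold change of the 8 was 0.10, with 4 below 0. The 3 genes that rose without the block were unc5b, esm1 and dll4. The netrin receptor gene unc5b had 412, 421 and 419 CPM in distal samples, against 21.5, 24.7 and 15.9 CPM in proximal samples (log2 fold change 4.22, SE 0.15; edgeR adjusted p = 3.64e-06). Whole-tissue reads do not show which cells expressed unc5b, and whether these were endothelial was not tested. The tip-cell gene esm1 had 2.51, 2.82 and 2.39 CPM in distal samples, against 0.846, 0.869 and 1.07 CPM in proximal samples (1.34, SE 0.24; adjusted p = 0.00410). The call of esm1 held with any single sample left out and was lost without both samples numbered 2 or 3. The Notch ligand gene dll4, which restrains sprouting from neighbouring cells, averaged 14.0 CPM in distal and 8.34 CPM in proximal tissue (0.63, SE 0.18; adjusted p = 0.0308). Its call was lost without distal sample 3 or 4, without proximal sample 2 or 4, and without both samples numbered 2 or 4. The co-receptor gene nrp1a, at 42.4 CPM in distal and 47.9 CPM in proximal tissue, did not pass without the block (adjusted p = 0.258) and did with it (-0.30 on the log2 scale; edgeR adjusted p = 0.0281).

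Of 10 venous and lymphatic genes, 7 were matched and 6 tested: 3 were lower in distal tissue and 1 higher, beside 14.4% and 15.3% of all tested genes. The hyaluronan receptor gene lyve1a was read 5, 3 and 2 times in distal samples 2, 3 and 4, against 137, 304 and 179 times in proximal samples 2, 3 and 4. The size of its drop, -5.96 on the log2 scale (SE 0.46; edgeR adjusted p = 7.12e-05), is poorly determined with so few distal reads. It passed the filter on low counts through its proximal reads alone, which favoured the direction of its call. The scavenger receptor gene stab2 had 4.47, 5.82 and 2.59 CPM in distal samples, against 13.1, 20.6 and 10.8 CPM in proximal samples (-1.90, SE 0.31; adjusted p = 0.00288). The third that fell was nr2f2, a venous transcription factor gene, at 3.64 CPM in distal and 7.76 CPM in proximal tissue (-1.21, SE 0.16; adjusted p = 0.00101). The 1 that rose was ephb4a, a venous ephrin receptor gene, at 40.1 CPM in distal and 25.6 CPM in proximal tissue (0.53, SE 0.17; adjusted p = 0.0445), and this call held without distal sample 4 only among the 6 fits that left out 1 sample. The related scavenger receptor gene stab1 did not pass, at 18.7 CPM in distal and 16.3 CPM in proximal tissue (adjusted p = 0.805). Nor did prox1a, at 11.3 CPM in distal and 8.60 CPM in proximal tissue (0.28; edgeR adjusted p = 0.237). The gene lyve1b, at 1, 1 and 1 reads in distal and 2, 3 and 0 reads in proximal samples, was not tested. The 7 matched genes summed to a mean of 78.2 CPM in distal and 82.6 CPM in proximal tissue (exact two-sided permutation p = 0.8).

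Among the ligands that act on vessels, 13 of 18 were matched and 8 tested: 2 rose and 1 fell in distal tissue, and 5 did not pass, beside 29.7% of all tested genes that passed in either direction. The apelin gene apln, whose peptide acts on the aplnra and aplnrb receptors of endothelial cells, had 43.8, 47.1 and 34.6 CPM in distal samples, against 10.7, 13.5 and 9.36 CPM in proximal samples (log2 fold change 1.79, SE 0.16; edgeR adjusted p = 0.000127). The gene pdgfbb, for a ligand that recruits mural cells, had 11.5, 11.9 and 14.1 CPM in distal samples, against 3.64, 6.72 and 5.17 CPM in proximal samples (1.16, SE 0.22; adjusted p = 0.00585). Its paralogue pdgfba fell, with 8.09 CPM in distal and 11.5 CPM in proximal tissue (-0.63, SE 0.17; adjusted p = 0.0241). This call was lost without distal sample 3 or 4, without proximal sample 2 or 4, and without both samples numbered 2, 3 or 4. The chemokine gene cxcl12a had 48.4 CPM in distal and 45.8 CPM in proximal tissue (adjusted p = 0.847). With the replicate block 6 of the 8 passed, 3 in each direction, where 48.4% of all tested genes passed. Without both samples numbered 4, 4 of the 8 passed, beside 5244 of all 18455 tested genes. The Vegf-A genes were not matched to a single identifier each and were not analysed here.

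Mural cells, the pericytes and smooth muscle cells that wrap vessels, were represented by 11 genes, of which 8 were matched and 7 tested. In distal tissue 3 were lower, beside 14.4% of all tested genes, and 4 did not pass. The number higher was 0 in edgeR, DESeq2 and limma-voom. An unadjusted edgeR p-value under 0.05 was found for 6 of the 7, beside 7648 of all 18455 tested genes. Among those 6, notch3 and pdgfrb were higher in distal tissue. The pericyte gene rgs5a had 14.9, 14.3 and 31.3 CPM in distal samples, against 56.2, 65.4 and 79.1 CPM in proximal samples (log2 fold change -1.85, SE 0.32; edgeR adjusted p = 0.00342). Smooth muscle actin, acta2, was at 10, 3 and 6 reads in distal samples and 22, 35 and 14 reads in proximal samples (-1.92, SE 0.51; adjusted p = 0.0234). It passed the filter on low counts through its proximal samples. The third was the channel gene abcc9 (-1.32, SE 0.31; adjusted p = 0.0155). The calls of acta2 and abcc9 were lost without distal sample 3 or proximal sample 3, and that of acta2 also without proximal sample 2. Thus 1 gene of the list passed without distal sample 3. Both calls were also lost without both samples numbered 3, and that of acta2 without both numbered 2. The receptor gene notch3 did not pass, at 381 CPM in distal and 306 CPM in proximal tissue (edgeR adjusted p = 0.105). Every distal value of notch3 lay above every proximal one, as for 30.1% of all tested genes. Library size alone gave it an edgeR adjusted p-value of 0.0204, a scaling that moved the median of all tested genes by 0.12 toward distal tissue. With the block 4 were lower and 1 was higher, beside 25.1% and 23.3% of all tested genes. The 1 higher was the receptor gene pdgfrb (0.48 on the log2 scale; edgeR adjusted p = 0.00794), at 49.1 CPM in distal and 33.3 CPM in proximal tissue. Without the block pdgfrb did not pass (edgeR adjusted p = 0.116), and its regions overlapped. With the block notch3 did not pass (edgeR adjusted p = 0.0590). Without both samples numbered 4, 4 of the 7 passed, beside 5244 of all 18455 tested genes.

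Markers of other cell types moved with the region too, and their part in the endothelial results was not tested. Their counts stand beside 14.4% of all tested genes lower and 15.3% higher, and summed levels are over all matched genes of a list. Leukocyte genes were lower in distal tissue for 3 of 6 tested, with a summed level of 175 to 190 CPM in distal and 203 to 298 CPM in proximal samples. Of the 3, coro1a overlapped between the regions, and its call held in 1 of the 6 fits that left out 1 sample. By limma-voom 2 leukocyte genes were lower and by DESeq2 4, beside 2632 and 2726 of all 18455 tested genes. With the block 5 were lower, beside 25.1% of all tested genes. The pan-leukocyte gene ptprc fell by 0.97 on the log2 scale (SE 0.16; edgeR adjusted p = 0.00287). Epidermal genes were lower for 3 of 5, with sums of 21624 to 22102 CPM in distal and 44257 to 48565 CPM in proximal samples. Most of these sums was krt5, with means of 14914 CPM in distal and 37048 CPM in proximal tissue. The genes epcam (log2 fold change -0.14; edgeR adjusted p = 0.550) and cdh1 (0.23; adjusted p = 0.121) did not pass. For cdh1 every distal value lay above every proximal one, as for 30.1% of all tested genes. Genes of the blastema and fin-fold mesenchyme were higher for 5 of 6, with sums of 7314 to 8658 CPM in distal and 1317 to 1696 CPM in proximal samples. In the list of pigment and glial genes 3 of 3 tested were lower, namely dct, pmela and sox10. Of these, dct had 1, 1 and 2 reads in distal samples and passed the filter on low counts through its proximal reads alone. The list summed to 3.18 to 5.59 CPM in distal and 32.4 to 50.1 CPM in proximal samples. Most of this was pmela, with means of 3.28 CPM in distal and 32.8 CPM in proximal tissue. The myelin genes mbpa, mpz and plp1b had too few reads to be tested. Of 5 tested osteoblast genes 1, spp1, was lower and 4 did not pass. Those 4, runx2b, sp7, ifitm5 and phex, had log2 fold changes of 0.24 to 0.89. With the block 3 of them were higher in distal tissue, beside 23.3% of all tested genes. The myelin gene plp1b and the osteoblast gene bglap were at 0 reads in all distal samples and at no more than 2 in any proximal one.

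Red blood cell genes varied more between libraries than between regions. The 6 matched red blood cell genes, all tested, summed to 42.8, 502 and 25.3 CPM in distal samples 2, 3 and 4, against 69.6, 214 and 19.9 CPM in proximal samples 2, 3 and 4. Sample 3 was the highest and sample 4 the lowest in each region. Among the members tie1 and fli1b also showed this order, as did the sums of the leukocyte and thrombocyte lists. None of the 6 red blood cell genes passed in edgeR, DESeq2 or limma-voom, and 0 had an unadjusted edgeR p-value under 0.05. The same counts were found for the 3 tested thrombocyte genes, whose list summed to 4.52 to 9.04 CPM in distal and 3.58 to 7.95 CPM in proximal samples.

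**Figure D4:**
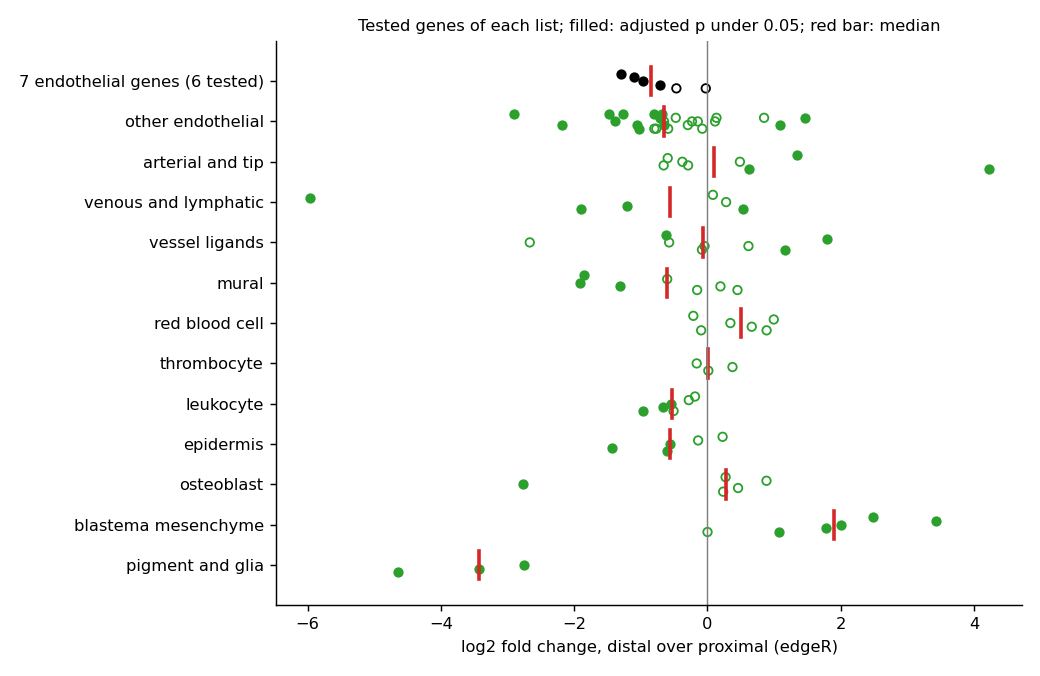
Log2 fold change, distal over proximal, of each tested gene in the endothelial set (black) and in 12 lists of vessel and other cell type genes (green), with the median of each list as a red bar. Filled points passed an adjusted p-value under 0.05; the medians are -0.85 for the 6 tested endothelial genes, -0.66 for the other endothelial genes and 1.90 for blastema mesenchyme.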

How the data were processed

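The deposited files hold the authors' raw counts of reads per Ensembl gene. TopHat2, HTSeq and the build GRCz11 (danRer11) are named in the submitters' processing notes. The annotation release and strand setting of the counting are not given in the sources used here. Whether reads of a gene were counted apart from those of an antisense partner is therefore not known. RNA was TRIzol-extracted and made into stranded mRNA libraries, per the labels' protocols. The line with an empty identifier, which repeats the sum of the gene counts, and the category lines were left out; reads assigned to no gene were 10.8 to 14.6% of uniquely aligned reads.

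The regions were compared by edgeR 4.0.16 (R 4.3.3): filterByExpr (minimum 10 counts, 18455 genes kept), TMM, the quasi-likelihood F-test without a block, Benjamini-Hochberg adjustment and a threshold of 0.05. The SE is the absolute log2 fold change over the square root of F. At 3 counts the floor was 0.127 to 0.149 CPM. Alternatives were scaling by library size alone or by DESeq2 size factors, a mean of 50 counts or no filter, the replicate block, DESeq2 1.42.0, limma-voom (limma 3.58.1) and left-out samples. The unfiltered fits with a block or without distal sample 2, and the ratios to tie1 and between paralogues, were added after seeing the values. The code was tested on simulated data.

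Sample numbers come from the titles, and a shared origin of a distal and a proximal piece with 1 number is not stated. Deviations from the region mean correlated at 0.42, 0.56 and 0.68 between same-numbered samples, against a mean of -0.26 between samples of different numbers. The numbers were used as pairs only in the pair ratios and in the fits with the replicate block. The main fit did not use them, and its common coefficient of biological variation was 18.5%, against 8.97% with the block. Chi-square per degree of freedom between samples of a region was 16.9 to 29.9, so none was counted as a repeat. The p-values measure the spread between pooled samples, and whether the pools came from separate clutches is not stated.

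Members and lists were chosen with earlier results of these data known. Symbols were matched through a table of Ensembl identifiers, with RefSeq synonyms, and symbols with no or several identifiers were left out. The genes to name were all members and the 5 most like cdh5. From each list they were the 2 with the highest mean CPM and the 2 with the largest change past the threshold. For the lists of blood cells and other cell types outside vessels, not all of these are printed. Other named genes are said to be chosen after their values were seen, or are list genes in a count of 4 or fewer. No sequences are shown.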

Additional observations from a re-analysis of the deposited data

How the results depend on the processing

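The log2 fold changes of tie1, kdr, tek, fli1b and etv2 kept their sign in every alternative that was run. With samples left out, singly or both of a number, they lay between -1.29 and -0.86 for tie1, -1.18 and -0.74 for kdr, -1.55 and -1.03 for tek, -0.83 and -0.56 for fli1b, -0.64 and -0.28 for etv2, -0.16 and 0.16 for fli1a, and 1.46 and 2.94 for cdh5, whose value from all samples was 2.45 as a ratio of mean CPM. In the same fits the members past the threshold numbered 0 to 4, the wider endothelial list 5 to 12, the ligands 2 to 4, the mural genes 1 to 4 and all genes 2231 to 5244. The sign of fli1a turned to 0.088 under library size alone; the cause was not tested. The replicate block raised etv2 past the threshold at -0.47, also without a filter (-0.47), and gave 6 ligands, 5 mural genes and 8938 genes in all, against 3, 3 and 5480 without it, and it changed the call of no other tested member. Without a filter the block gave 7, 5 and 9453. DESeq2 gave 5 ligands, and the filter at a mean of 50 counts, which tested fewer genes, 1 mural gene. For cdh5 the unfiltered fit without distal sample 2 gave 1.29, where the few reads of the other libraries limit precision. No value could be given for tek under the filter at a mean of 50 counts, or for cdh5 wherever the filter removed it.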

Other observations

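The 5 genes whose log2 CPM followed cdh5 most closely over the 6 libraries, among 15937 candidates, were golim4a, DHRS3, SKIC3, CTR9 and NAGLU, with Pearson correlations of 0.986 to 0.997. Of these, DHRS3 (ENSDARG00000044803, the identifier meant here among those with that symbol) was higher in distal tissue, at 25.7 CPM in distal and 6.25 CPM in proximal tissue (log2 fold change 1.93; edgeR adjusted p = 0.0150), and the others did not pass. Of all tested genes, 15.3% were higher in distal tissue by that rule. Choosing by likeness to cdh5, itself higher in every distal sample, favoured that direction, so the call of DHRS3 is no separate result. Since cdh5 had 2 to 38 reads per library, the same measure was taken for tie1 after the values were seen. The 5 genes most like tie1 were trpv1, cks2, crb3a, vmo1a and SMC2, with Pearson correlations of 0.992 to 0.995. All 5 were lower in distal tissue, with log2 fold changes of -2.86 to -0.67. Choosing them by likeness to tie1, itself lower there, favoured that direction, so it is no separate result. The gene trpv1 had 10.7 CPM in distal and 22.6 CPM in proximal tissue (-1.19; edgeR adjusted p = 0.00521). The 6 points of each correlation share the regions and the library numbers, and the correlations are given as a description.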
